A study of Mus musculus with 5 samples.

Results

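The transcripts described here encode the proteins of the mitochondrial ribosome. They were taken as all probe sets whose annotation gives a single gene symbol of the form Mrpl or Mrps followed by a number, which gave 156 probe sets of 76 genes among 45037 non-control probe sets and 18193 genes on the array. A probe set is a group of short oligonucleotides that together report on a transcript. A further 4 probe sets name such a gene beside another gene and were left out. RNA from mouse brain was measured on 5 Affymetrix mouse expression arrays. On 2 arrays the RNA had been eluted from deiminated MA-Brent-1 and on 2 from the non-deiminated protein. The remaining array held initial RNA that met no protein, called input here. MA-Brent-1, named REFP2 in 2 sample titles, is an RNA-binding protein related to the mRNA export factor Aly, and deimination turns its arginines into citrulline. The labels describe the input as initial RNA without any binding experiment, and its title calls it a null RNA control. They do not say that the bound RNA was taken from it. In the non-deiminated group, 1 title marks a biological repeat. The sources used here give neither strain nor age nor how the protein was made. Numbers of replicates serve only as names, while the protein name in the titles is shared across the groups, with MA-Brent-1 on 1 array of each and REFP2 on the other.

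The mitochondrial ribosome translates the few messages that the mitochondrial genome encodes, all of them for membrane subunits of the respiratory chain and the ATP synthase. Its RNAs are made inside the organelle, but every one of its proteins is encoded in the nucleus, exported as mRNA, translated in the cytosol and imported. Mrpl genes encode proteins of the large subunit, where the peptide bond is made, and Mrps genes mostly those of the small subunit, which decodes the message. Many members descend from bacterial ribosomal proteins, and others have no bacterial counterpart. Some members do further work: Mrpl58 (also Ict1) is a peptidyl-tRNA hydrolase that frees stalled ribosomes, and Mrps36 is now known as a subunit of the alpha-ketoglutarate dehydrogenase complex and not of the ribosome.

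Many members share letters in their promoters, which the choice of members did not use. The promoters are shown as the sequence that regulates these nuclear genes, and the arrays did not measure promoter activity. RefSeq promoters of GRCm38.p6, each 300 bases long from 250 before to 50 after the gene start, were matched for 67 of the 76 genes, with 73 promoters in all. The letters CCGGAAG, the core bound by ETS factors such as GABP, stood on either strand in 25 of the 73 (34.2%), in 27 of 76 promoters of cytosolic ribosomal protein genes (35.5%) and in 8.86% of all 32851 promoters. AAGATGG, the core of YY1 sites, was in 17.8% against 6.34% of all promoters, and GCGCATG, within NRF1 sites, in 11.0% against 3.91%. GGGCGG, a GC box, was in 53.4% against 35.7%. TATAAA was in 6.85% against 13.6%. Both strands were searched, and the YY1 and NRF1 letters were shortened to these cores after longer forms, also more frequent in members than in all promoters, had been counted. A match is a description of the letters and not a shown binding site. The stretches below hold the 250 bases before the start of 3 members whose signals are given further on, Mrpl51 as the brightest, Mrpl58 among the largest rises and Mrpl34 among the largest falls. These genes were picked because the ETS letters stand there, so they do not show how common the letters are. The stretches are written 5′ to 3′ on the gene's strand, with the ETS letters in capitals. All 3 genes lie on the plus strand, at chr6:125191950-125192199, chr11:115403502-115403751 and chr8:71464676-71464925.
Mrpl51: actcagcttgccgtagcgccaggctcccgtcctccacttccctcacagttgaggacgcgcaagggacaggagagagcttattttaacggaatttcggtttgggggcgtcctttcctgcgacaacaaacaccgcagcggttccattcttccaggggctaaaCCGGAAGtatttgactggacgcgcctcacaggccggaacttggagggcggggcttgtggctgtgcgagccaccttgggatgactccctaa
Mrpl58: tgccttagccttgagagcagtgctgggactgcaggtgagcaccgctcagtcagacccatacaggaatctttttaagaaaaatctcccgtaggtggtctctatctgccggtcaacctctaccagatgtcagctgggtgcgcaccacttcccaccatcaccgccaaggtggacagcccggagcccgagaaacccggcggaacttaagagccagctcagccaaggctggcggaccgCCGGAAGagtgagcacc
Mrpl34: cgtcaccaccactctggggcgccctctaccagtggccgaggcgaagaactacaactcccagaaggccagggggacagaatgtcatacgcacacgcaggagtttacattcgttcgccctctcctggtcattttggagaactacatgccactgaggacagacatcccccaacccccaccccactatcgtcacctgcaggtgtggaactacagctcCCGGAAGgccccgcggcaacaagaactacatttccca
The ETS letters begin 90 bases before the start in Mrpl51, 17 in Mrpl58 and 37 in Mrpl34. They begin 240 bases before it in Mrpl18, a large rise that met the same rule and is not printed. Among genes with a promoter, they stood in 10 of 23 genes whose brightest probe set rose on the bound arrays, in 1 of 8 whose brightest probe set fell and in 14 of 36 others. Other letters were split differently: the YY1 core stood in 2 of the 23, 4 of the 8 and 7 of the 36, the NRF1 core in 3, 2 and 3, the GC box in 10, 6 and 18 and TATAAA in 2, 1 and 2. These splits were not tested.

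The arrays differ as wholes, which bears on every comparison with input. Over all probe sets the median was a signal of 29.8 to 41.4 with bound RNA and 102 in input. Hybridisation controls, transcripts added before hybridisation, had a mean log2 signal of 10.1 to 13.04 on the bound arrays and 17.04 on the input array. In each bound group, replicate 1 had lower and replicate 2 higher controls. Brain markers were present: of 12 neuronal markers 10 were called higher on the bound arrays than on input, as were 3 of 5 oligodendrocyte and 4 of 6 astrocyte markers. By the same rule, 22.3% of all genes were called higher and 30.9% lower. The summed signals of the neuronal, oligodendrocyte and astrocyte markers were 21149 to 23484, 23221 to 68236 and 21442 to 28433 on the bound arrays. On input they were 6280.4, 48663 and 6766. Of the microglial markers, 3 of 6 were called higher and 1 lower, with sums of 3686 to 4422 against 1997. Of 6 muscle markers 1, Ckm, was called lower. Muscle markers summed to 51.2 to 107 and 491, with Ckm alone at 377 on input. Of 3 red blood cell markers 1, Alas2, was called higher and 2 lower, with sums of 169.6 to 243 and 882. Of 5 liver markers 3 were called lower, among them the defining genes Alb, with 16.5 to 32.5 on the bound arrays and 284 on input, and Apoa1, with 1.30 to 16.6 and 173. The whole liver list summed to 10684 to 40671 and 8599.6 and holds Ttr, which the choroid plexus of the brain also makes. The part of these markers in the results was not tested. The signals come from bulk RNA, in which fewer cells of a type and less RNA per cell cannot be told apart.

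On the bound arrays the mitochondrial ribosomal protein transcripts stood well above the middle of the array. Their median percentile among all probe sets of the array was 78.7 and 76.2 with deiminated protein, 79.4 and 75.7 with the non-deiminated form and 64.6 in input. A percentile does not change when a whole array is multiplied by a factor. Of the 156 members, 120 to 127 exceeded the array's median signal on each bound array and 97 did so on input. The median member signal was 161, 144, 175 and 140 on the bound arrays and 166 on input, so in signal units the middle member hardly differed between bound and input arrays, while the median of all probe sets did. Cytosolic ribosomal proteins, which build the ribosome outside the organelle, lay higher, at percentiles of 95.4 to 96.0 on the bound arrays and 91.1 on input. The nuclear-encoded subunits of oxidative phosphorylation lay at 95.5 to 96.5 and 86.8.

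**Figure D1:**
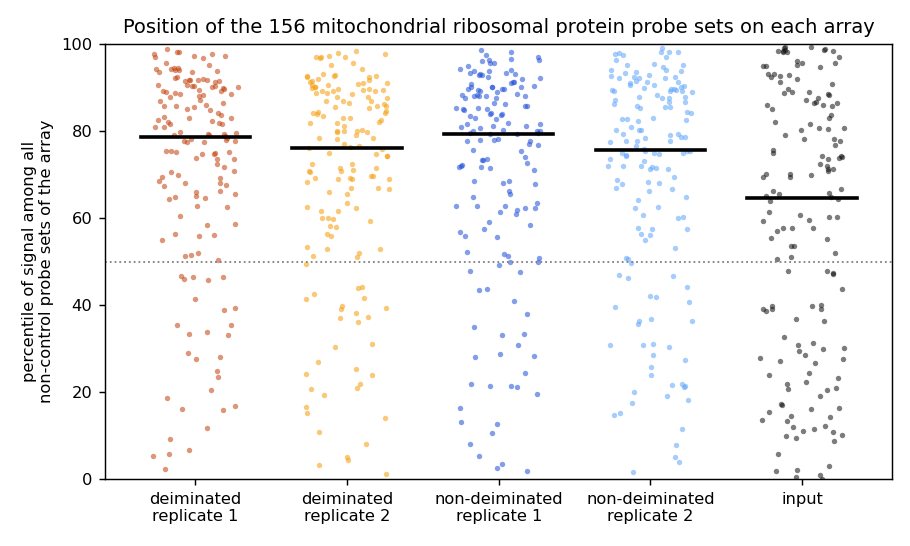
Percentile of each of the 156 mitochondrial ribosomal protein probe sets among all non-control probe sets of its array (vertical axis, 0 to 100), for the 5 arrays; each point is a probe set and each bar the median. The medians are 75.7 to 79.4 on the 4 bound arrays and 64.6 on the input array, where the points spread more evenly over the range.

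The members ranged widely in signal. Mrpl51, of the large subunit, was the brightest by its mean log2 signal over the bound arrays, with 4269 and 3264 with deiminated protein, 3151 and 5322 with non-deiminated protein and 1195 in input. Mrpl11, the counterpart of the bacterial protein L11 near the site where translation factors bind, had 2831 and 2417 with deiminated protein, 2611 and 2752 with non-deiminated protein and 3721 in input. These 2 genes were both bright, yet the first was higher on every bound array than on input and the second lower on every one. The contrast holds for these probe sets only, and the difference of Mrpl11 was not called. A dimmer probe set of Mrpl51 was lower on every bound array than on input, and a dimmer one of Mrpl11 higher on every one. Mrpl41 had 2825 and 2196 with deiminated protein, 1726 and 2645 with non-deiminated protein and 2531 in input, so its bound arrays lay on either side of input. Mrpl44, whose protein has a ribonuclease III fold, had 2026 and 1787 with deiminated protein, 1450.2 and 2898 with non-deiminated protein and 1356 in input. At the other end of the brightest-per-gene signals were Mrpl54 with 40.7, 22.7, 44.4 and 86.7 against 240.0 on input, Mrps11 with 40, 48.9, 46.6 and 55.7 against 271, Mrpl37 with 76.8, 58.1, 70.3 and 50.5 against 214 and Mrps27, a protein with pentatricopeptide repeats, with 104, 43.3, 99.1 and 28.9 against 11.4. The first 3 of these read higher on input than on any bound array, and Mrps27 read higher on every bound array than on input. Levels of different probe sets depend on their oligonucleotides as well as on the RNA, so this order is one of signals.

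The bound arrays gave nearly the same member signals as each other and the input array did not. Over the 156 members, Pearson's r of log2 signal was 0.956 between the deiminated arrays, 0.922 between the non-deiminated arrays and 0.924 to 0.975 across the groups. With the input array it was 0.454 to 0.503. Over all probe sets the same values were 0.933, 0.904, 0.894 to 0.963 and 0.451 to 0.482. These are correlations across probe sets that share an array, and they are given as descriptions. Between the highest and the lowest bound array, the median member differed 1.74-fold, and 97 of 156 members stayed within 2-fold. The 78 members with more bound signal (a mean of 158 or more) had a median of 1.57-fold and none over 4-fold, and the 78 with less had 2.44-fold and 24 over 4-fold.

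The comparison of bound RNA with input asks which brain RNAs read higher or lower after elution from the protein. With a lone input array, selection by the protein and a difference of that array itself cannot be told apart. Mitochondrial ribosomal protein transcripts moved in both directions: 41 of 156 probe sets (26.3%) were called higher on the bound arrays and 40 (25.6%) lower, and 75 were not called. Called means a Benjamini-Hochberg adjusted p under 0.05 from limma, over all 45037 probe sets. Of all probe sets, 15.6% were called higher and 36.2% lower. The median log2 difference was 0.24 over the members and -0.92 over all probe sets. All 4 bound arrays lay above input for 75 members (48.1%, against 25.2% of all probe sets) and below it for 56 (35.9%, against 54.7%). Cytosolic ribosomal proteins had 51 of 105 called higher and 17 lower, with a median of 1.19. Oxidative phosphorylation subunits had 79 of 164 higher and 24 lower, with a median of 1.15. These counts describe the lists, and no test of a list against the rest was made. Differences are on the log2(signal + 4.18) scale, values after ± are limma's standard errors, and the input side of each rests on 1 array.

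Calls of a rise were mostly of members with more bound signal, a measure that itself enters the difference. Among the 78 members with more bound signal, 31 were called higher and 5 lower, and among the 78 with less, 10 were called higher and 35 lower. The same split was not made over all probe sets, so the pattern is not shown to be particular to the members. A filter on mean signal took the calls over all probe sets from 15.6% higher and 36.2% lower to 26.8% and 29.8%. With only the brightest probe set of each gene (by mean log2 signal over the 5 arrays), which represents the gene from here on, 26 of 76 genes rose (34.2%), 10 fell (13.2%) and 40 were not called. Among the brightest probe sets of all 18193 genes, 22.3% were called higher and 30.9% lower. The remaining 80 member probe sets had 15 called higher and 30 lower. Because input signal helps to choose the brightest probe set, the choice was repeated on the bound arrays alone, after the data had been seen: 4 genes changed probe set, and 29 genes were called higher and 8 lower.

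The rises included proteins of both subunits. In the large subunit, Mrpl24, a counterpart of the bacterial protein L24, had 807 and 655 with deiminated protein, 739 and 468 with non-deiminated protein and 15.3 in input. It rose by 5.08 ± 0.37 (adjusted p = 1.75e-06). Mrpl58, the stalled-ribosome hydrolase, had 562 and 361 with deiminated protein, 539 and 468 with non-deiminated protein and 11.7 in input, a rise of 4.91 ± 0.38 (adjusted p = 2.61e-06). On the bound arrays both stood among the brighter transcripts and on input among the dimmest: Mrpl58 stood at percentiles of 91.2, 87.9, 90.8 and 90.5 when bound and 12.1 in input. Mrpl19 had 294, 223, 308 and 256 against 13.6 and rose by 3.94 ± 0.41. For Mrpl50, which has no bacterial counterpart, the signals were 221, 285, 233 and 174 against 12.8 and the rise 3.75 ± 0.44. Mrpl18 had 382, 411, 310.4 and 420.1 against 27.8, with a rise of 3.58 ± 0.37. Mrpl12, the stalk protein of the large subunit, which also binds the mitochondrial RNA polymerase, had 341, 314, 392 and 355 against 28.8 and rose by 3.42 ± 0.36. In these genes the bound arrays differed among themselves by far less than from input. Mrpl20 (307, 289, 160.3 and 143 against 26.8), Mrpl43 (418, 489, 386 and 417 against 59.6) and Mrpl48 (1087, 874, 849.7 and 1029 against 145) rose by 2.80, 2.75 and 2.69.

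The largest rise of any member was in the small subunit. Mrps6, a counterpart of the bacterial protein S6, had 1264 and 1168 with deiminated protein, 1201 and 815 with non-deiminated protein and 12.9 in input. The log2 difference was 6.01 ± 0.34 (adjusted p = 6.16e-07), and the percentiles were 95.7, 95.7, 95.6 and 94.1 when bound and 13.6 in input. Its other probe set rose as well, by 1.91, with signals of 148, 126, 103 and 95.2 against 28. Mrps14, a counterpart of the bacterial protein S14, had 938, 536, 1226 and 658 against 92.9 and rose by 3.05 ± 0.42. Mrps35, without a bacterial counterpart, had 91.6, 104, 114 and 110.1 against 10.5 and rose by 2.89 ± 0.57. The 12 genes with the largest rises had input signals of 10.5 to 145, so most lay under that array's median of 102, and a choice by size prefers those with little signal in the lone input sample. Of their 10 other probe sets, 4 had the same direction. The sizes depend on the pseudocount of 4.18, and for Mrps6 a smaller one gave 6.30 and a larger one 5.23. The other 14 genes that rose, with values down to 1.18 for Mrps18b, included Mrpl13, Mrpl16, Mrpl22, Mrpl23, Mrpl27, Mrps2, Mrps7, Mrps10 and Mrps16, all with bacterial counterparts.

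The 10 genes that fell all had their bound arrays below input. Mrpl38, which has no bacterial counterpart, had 57.5 and 96 with deiminated protein, 48.7 and 91.5 with non-deiminated protein and 548 in input, a log2 difference of -2.88 ± 0.52 (adjusted p = 0.0011). This probe set is the brightest of Mrpl38 only through its input signal. The other 2 had positive differences, 2.38 and 2.72, and the latter, the brightest on the bound arrays, was called higher. The direction for Mrpl38 therefore depends on the probe set. Mrpl14, a counterpart of the bacterial protein L14, had 79.1 and 95.1 with deiminated protein, 104 and 120.1 with non-deiminated protein and 596 in input, a difference of -2.55 ± 0.41 (adjusted p = 0.000561). Its percentiles were 68.1, 69.1, 71.9 and 73.1 when bound and 95.7 in input, so it stayed above the array's middle when bound. Mrps11 had -2.41 ± 0.58, Mrpl54 -2.35 ± 0.66 and Mrpl34 -2.03 ± 0.48, the last with signals of 84.1, 80, 58.4 and 83.7 against 323. The probe set of Mrpl34 that was brightest on the bound arrays had -1.30 and was not called. Mrpl32, whose precursor is cut by the m-AAA protease of the inner membrane before the protein joins the ribosome, had 127, 84.1, 109 and 63.8 against 422 and a difference of -2.13 ± 0.47. Mrpl37 had -1.69, Mrps5 -1.57, Mrpl9 -1.36 and Mrps24, the counterpart of the bacterial protein S3, -1.10. These genes have 12 further probe sets, of which 8 went the same way.

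**Figure D2:**
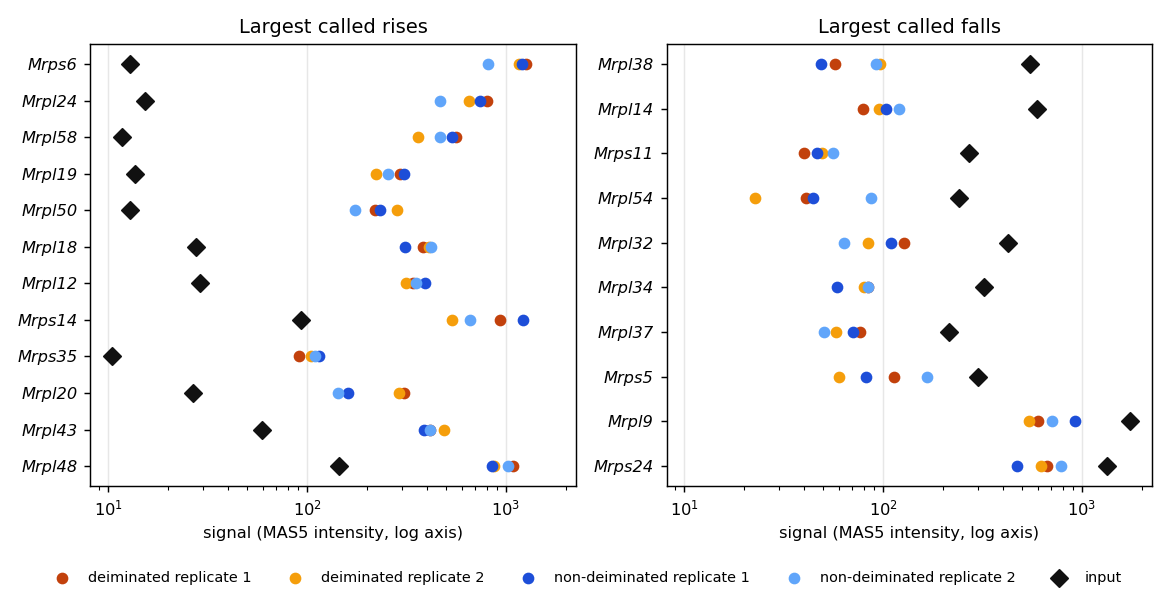
Signal (MAS5 intensity, log axis) on each of the 5 arrays for the 12 member genes with the largest called rises (left) and the 10 with called falls (right), each by its brightest probe set; circles are bound arrays and black diamonds the input array. In every gene shown the 4 circles lie on one side of the diamond, from 815 to 1264 against 12.9 for Mrps6. The rule for naming genes asked for this, and all 26 genes called higher and all 10 called lower met it.

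Whether a gene rose or fell often depended on which of its probe sets was read. Of the 42 genes with 2 or more probe sets, 27 had differences of both signs and 11 had probe sets called in both directions: Mrpl15, Mrpl19, Mrpl38, Mrpl41, Mrpl44, Mrpl48, Mrpl50, Mrpl51, Mrpl58, Mrps2 and Mrps9. In 10 genes calls were only higher, in 19 only lower, and in Mrpl57 and Mrps21 no probe set was called. The same was not counted over all genes of the array, so such splits are not shown to be particular to these genes. The median range between the probe sets of a gene was 3.28 log2 units. The widest was in Mrpl44, where 1426651_at had 126, 105, 134 and 138 against 4.02 (3.98 ± 0.57), 1437391_x_at had 1657, 1739.9, 1425 and 2788 against 436 (2.07 ± 0.40) and 1430990_s_at had 13.7, 1.07, 2.56 and 7.99 against 139 (-3.93 ± 0.92). The first pair rose and the last fell. On Affymetrix arrays the endings s and x mark probe sets that can also match other transcripts. Among the largest rises, the brightest probe sets of Mrps6, Mrpl19 and Mrpl48 have such endings. Among the falls, those of Mrpl37, Mrps5, Mrpl9 and Mrps24 have them.

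Mrpl15 had 8 probe sets, the most of any member. 1434970_a_at rose by 2.42, while 1439988_at had -1.70 and 1460490_at had -3.60, both called lower. The brightest, 1435232_x_at, was not called (0.62 ± 0.39). Mrps2 showed the same split with 2 probe sets: 1420846_at had 386, 428, 367 and 466 against 62.4 and rose by 2.64, and 1420845_at had 17.7, 6.63, 13.8 and 41 against 268 and fell, with -3.70. Mrpl19 had 3.94 and 2.81 called higher and -1.79 called lower, and Mrps9 had 2.81 called higher and -1.59 lower. In each of these genes the probe set called lower was dimmer on every bound array than the one called higher.

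A few genes had 2 or more probe sets called in one direction and none in the other. Mrpl13 had 3 of 4 called higher (1.63, 1.76 and 1.26), and the other had 1.24. Mrps23 had 2 of 3 called higher (3.96 and 2.40), with its brightest at 0.96, not called. On the other side, Mrps5 had 3 of 5 called lower beside 1 at 1.77 that was not called, Mrpl1, Mrpl9 and Mrpl21 had 2 of 3, and Mrpl54 had 2 of 2. Mrpl1 had -4.20 and -2.03 there, while its brightest probe set had 0.65. Mrpl3, Mrpl35, Mrpl47, Mrpl52, Mrps15 and Mrps25 each had 3 or more probe sets and a brightest one that was not called, with 1.00, 0.43, 0.15, -0.88, 0.36 and 0.89. In Mrps15 another probe set, 1449294_at, had 480.3, 392, 459.8 and 445 against 21.2 and rose by 4.14 ± 0.35. Mrpl11, Mrpl17 and Mrpl28 likewise had a brightest probe set without a call (-0.49, -0.59 and -0.08) and each a dimmer one called lower.

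**Figure D3:**
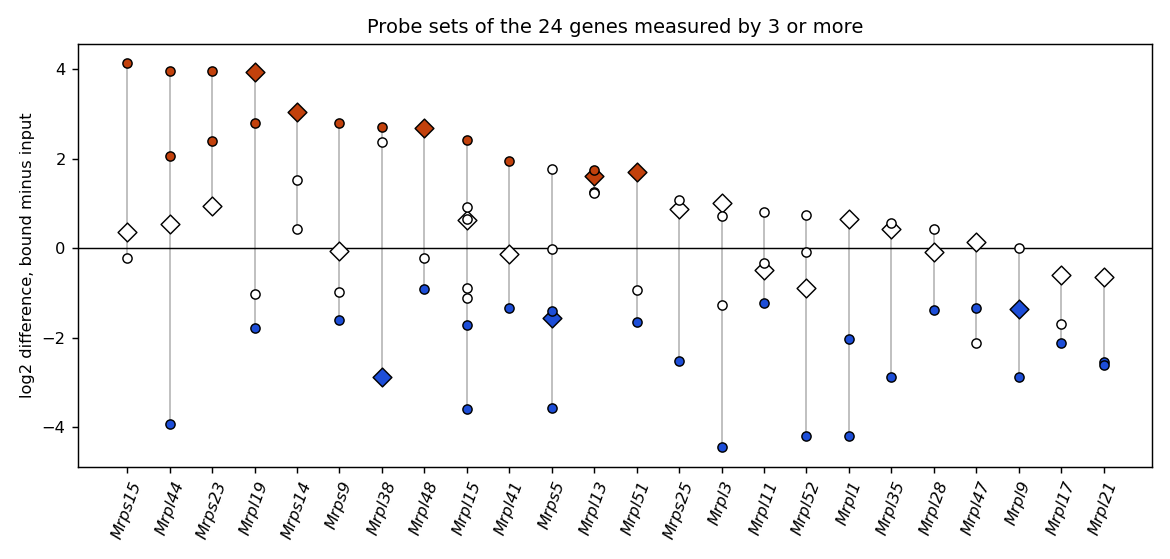
log2 difference of bound minus input (vertical axis) for each probe set of the 24 member genes measured by 3 or more; diamonds are the brightest probe set of a gene, circles the others, red called higher, blue called lower and white not called. Red and blue symbols share a column in genes such as Mrpl44, whose probe sets run from 3.98 to -3.93.

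Scaling the arrays in other ways moved the calls. Of the 41 probe sets called higher, 40 were also called higher after quantile normalisation and 30 after cyclic loess, and of the 40 called lower, 21 and 14 were also called lower. These scalings moved the median of all probe sets up, from -0.92 to -0.02 and -0.14. Median centring and scaling to the hybridisation controls add the same amount to every bound-minus-input difference, which took that median to 0.54 and 4.54. Under both, falls are lost through this shift, so their counts do not bear on which calls are more stable. Control scaling also moves the arrays of a group by unequal amounts, as the controls ran from 10.1 to 13.04 over the bound arrays. Under it all 156 members had positive differences, yet only 47 were called higher. Median centring and control scaling, in that order, gave 41 and 38 of the 41, and 4 and 0 of the 40. In all 5 ways of scaling together, 30 probe sets of 27 genes were called higher, and the 12 genes with the largest rises are among them. Of the 10 genes that fell, 7 were called lower after quantile normalisation and 7 after cyclic loess, and the upward shift of median centring left none, with Mrpl9 and Mrps24 at 0.09 and 0.36. The share of higher among the calls was 50.6%, against 69.3% after quantile normalisation, 61.9% after cyclic loess and 95.6% after median centring. Calls over all probe sets moved too, from 15.6% higher and 36.2% lower to 22.3% and 20.8% after quantile normalisation. They were 16.2% and 13.6% after cyclic loess and 28.4% and 9.76% after median centring. The member share was 60.3% with a filter on mean signal. It was 30.2% with a filter that asked for signal on both bound and input arrays, which kept 94 members. That filter kept only 2 of the 12 genes with the largest rises, Mrpl48 and Mrps14, and all 10 genes that fell. Of all probe sets kept, 26.8% were called higher and 29.8% lower with the filter on mean signal, and 16.0% and 41.2% with the other. Relative to the median of all probe sets, the member median was higher by 1.16, by 0.49 after quantile normalisation and by 1.16 after median centring, but it lay below it after cyclic loess (-0.30 against -0.14).

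**Figure D4:**
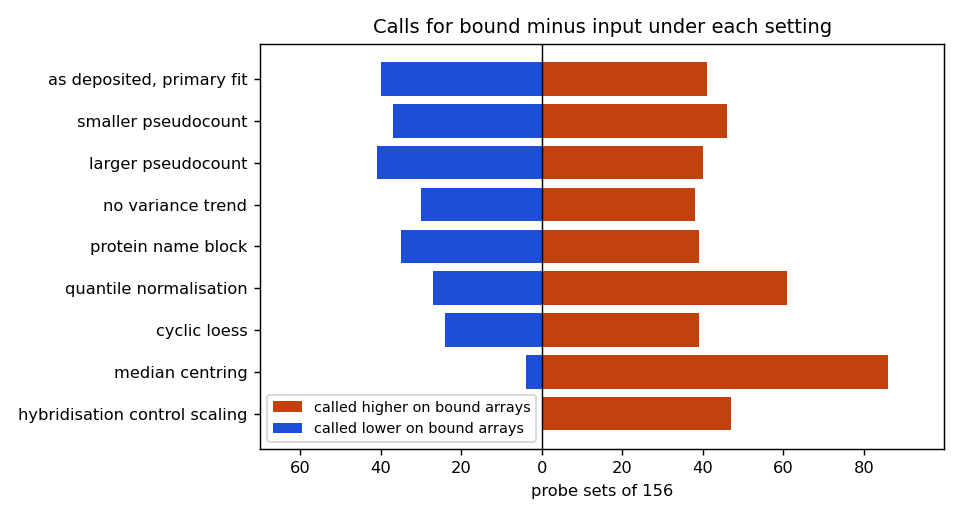
Number of the 156 member probe sets called higher (red, to the right) or lower (blue, to the left) on bound arrays than on input, under the primary fit and 8 other settings. Calls higher run from 38 to 86 and calls lower from 0 to 41, with 4 lower after median centring and 0 after control scaling.

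Members of both subunits had similar median percentiles on the bound arrays, 76.0 to 78.2 for the small and 75.4 to 80.4 for the large subunit. On the input array these were 47.9 and 65.3. Of 49 small subunit probe sets, 14 were called higher and 9 lower, with a median of 0.42. Of 106 large subunit probe sets, 27 were called higher and 31 lower, with a median of -0.08. Mrps18a and Mrps30 were counted with the large subunit, where their proteins sit. The 95 probe sets of proteins with a bacterial counterpart had 24 called higher and 25 lower, and the 60 without had 17 and 15. None of these differences between classes was tested. Mrps36, the dehydrogenase subunit, had 193, 168, 116 and 166 against 314 and a difference of -0.97 ± 0.39 that was not called (adjusted p = 0.0552).

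Mitoribosomal proteins whose genes carry other names were measured for 4 genes, and 3 of them were called higher. Gadd45gip1, a large subunit protein also known as Crif1, had 159.6, 156, 183 and 113 against 4.78 and rose by 4.11 ± 0.54. Ptcd3 of the small subunit had 146, 74.5, 167 and 103 against 15.6 and rose by 2.62 ± 0.59, and Chchd1 had 647, 425, 667 and 268 against 189 and rose by 1.30 ± 0.46. Dap3, the small subunit protein that binds GTP, had 909, 829, 997 and 591 against 554 and was not called (0.56 ± 0.36). Of 22 assembly factors, 8 were called higher and 3 lower, with a median of 0.14. Eral1, a chaperone of the small subunit's RNA, rose by 3.40 ± 0.48, Mterf3 by 2.65 ± 0.52 and Ngrn by 1.69 ± 0.37. The 3 that fell were Mtg2 with -2.19 ± 0.52, Ddx28 with -2.02 ± 0.60 and Rbfa with -0.92 ± 0.33. Of 13 translation factors, 4 were called higher and 3 lower, with a median of -0.15. The elongation factor Gfm1 rose by 2.50 ± 0.42, the release factor Mtrf1l by 3.52 ± 0.73 and the RNA-binding protein Slirp by 1.94 ± 0.32. The 3 that fell were Gfm2, which recycles ribosomes, with -2.05 ± 0.51, Mtfmt, which formylates the initiator tRNA, with -2.71 ± 0.79, and the membrane insertase Oxa1l with -1.58 ± 0.45. Of 19 mitochondrial aminoacyl-tRNA synthetases and amidotransferase subunits, 4 were called higher and 5 lower, with a median of -0.34. Nars2 rose by 3.59 ± 0.57 and Qrsl1 by 1.89 ± 0.32, and Pars2 fell, with -2.93 ± 0.58, as did Ears2 (-2.04 ± 0.61), Mars2 (-2.94 ± 0.92), Wars2 (-2.29 ± 0.67) and Gatc (-1.49 ± 0.42). Of the genes that fell in these 3 lists, all but Pars2 were named after their values were seen. Each gene here is given by its brightest probe set, and the background for such probe sets is the 22.3% and 30.9% above.

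The last question was whether RNA binding changed once the protein was deiminated. No mitochondrial ribosomal protein transcript passed: limma called 0 of 156 members and 0 of 45037 probe sets (0%). At an unadjusted p under 0.05 there was 1 member (0.641%), against 923 of all probe sets (2.05%). The median difference was -0.03 over the members and -0.03 over all probe sets, with 71 members positive and 85 negative. Both deiminated arrays lay above both non-deiminated ones for 16 members (10.3%, against 11.6% of all probe sets) and below for 23 (14.7%, against 14.7%). Member values ran from -1.43 to 1.61.

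Mrpl20, a large subunit protein, was that single member. It had 307 and 289 with deiminated protein, 160.3 and 143 with non-deiminated protein and 26.8 in input, so both deiminated arrays read higher. The log2 difference was 0.96 ± 0.36 (95% interval 0.16 to 1.75), with an unadjusted p of 0.0218 and limma's adjusted p = 0.9999. Mrps25 had 0.43 (-0.29 to 1.15), Mrpl16 0.36 (-0.28 to 1.01) and Mrps36 0.36 (-0.40 to 1.13). In the other direction, Mrpl10, the protein at the base of the stalk, had 112 and 108 with deiminated protein, 184 and 194 with non-deiminated protein and 37.3 in input. Its difference was -0.76 (-1.63 to 0.11). Mrpl9 had -0.50 (-1.14 to 0.14), Mrpl54 -0.94 (-2.21 to 0.34) and Mrpl4 -0.52 (-1.33 to 0.30). In these 8 genes the groups did not overlap, and the intervals of all but Mrpl20 include 0.

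The intervals show how large a difference could have been missed. For 56 of the 156 members (35.9%, against 16.3% of all probe sets) the 95% interval lay within 2-fold in either direction, and for 127 (81.4%, against 62.7%) within 4-fold. Of the 56, 52 were among the 78 members with more bound signal. With 1 probe set per gene, 42 of 76 lay within 2-fold and 75 within 4-fold. An interval within 2-fold bounds the difference and does not mean that a 2-fold difference would have been called. For most dim members the interval reached beyond 2-fold, so a difference of that size was not excluded. The largest single values fell in this range, such as 1424164_at of Mrpl50, with 25.4 and 39.5 with deiminated protein, 22.3 and 1.03 with non-deiminated protein and 205 in input. There the difference was 1.61 ± 0.91, and 1 non-deiminated array read near 0.

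**Figure D5:**
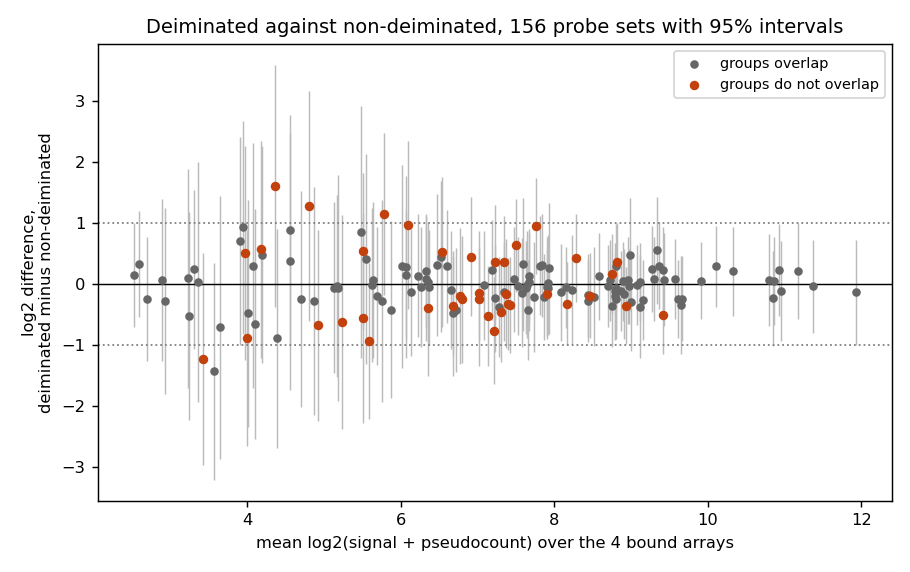
log2 difference of deiminated minus non-deiminated (vertical axis, bars are 95% intervals from limma) against mean log2 signal over the 4 bound arrays for the 156 member probe sets; red points are those whose groups did not overlap and dotted lines mark 2-fold. The bars narrow to the right, and the differences run from -1.43 to 1.61, with the widest bars at low signal.

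Pairs of arrays were also compared within each level of the hybridisation controls. Between the arrays with lower controls (replicate 1 of each group), the member median was 0.07 for deiminated minus non-deiminated, with 5 members over 2-fold higher and 5 over 2-fold lower. Between those with higher controls (replicate 2 of each group) it was -0.18, with 12 and 13. Paired by the protein name in the titles, it was 0.06 for MA-Brent-1 and -0.13 for REFP2. Over all probe sets the median was -0.01 with lower controls, -0.07 with higher controls, -0.21 for MA-Brent-1 and 0.12 for REFP2. In the pairs by title the members thus had the opposite sign to all probe sets. Within a group, the member median of replicate 1 minus replicate 2 was 0.19 in the deiminated and 0.01 in the non-deiminated arrays. Over all probe sets these were -0.13 and -0.21. The member medians between groups, in size, were no larger than the larger member median within them.

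Each form of the protein set against input by itself gave the members' values side by side, and both use the same input array. For deiminated against input, 40 members were called higher (25.6%, against 14.6% of all probe sets) and 34 lower (21.8%, against 32.7%), with a median of 0.25. For non-deiminated against input, 41 were called higher (26.3%, against 14.4%) and 35 lower (22.4%, against 30.8%), with a median of 0.22. Mrps6 rose by 6.16 ± 0.37 and 5.86 ± 0.37 in these comparisons, Mrpl24 by 5.23 ± 0.40 and 4.92 ± 0.40, and Mrpl58 by 4.83 ± 0.42 and 4.99 ± 0.42. Mrpl38 had -2.81 ± 0.57 and -2.96 ± 0.57, and Mrpl14 had -2.72 ± 0.45 and -2.38 ± 0.45. Both values of a gene share the input array, so their standard errors do not measure the difference between the forms. Fitted directly, deiminated minus non-deiminated was 0.30 ± 0.33 for Mrpl24 and -0.16 ± 0.34 for Mrpl58. It was 0.14 ± 0.46 for Mrpl38 and -0.35 ± 0.37 for Mrpl14.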

How the data were processed

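The 5 arrays of mouse brain RNA were deposited as MAS5 signals, an intensity per probe set on a linear scale. MAS5 is named per the submitters' processing notes, and the version and settings are not given in the sources used here. In the deposited values, the mean without the top and bottom 2% was 150.0 for all arrays, which had thus been brought to a common mean. Gene names came from the platform annotation (34945 probe sets with 1 symbol, 932 with several, 9160 with none), and all 156 members matched RefSeq by Entrez ID with 0 symbols changed. Values were taken as log2(signal + 4.18), a pseudocount of the median of all values (41.8) divided by 10, without a filter. They were fitted in limma 3.58.1 (R 4.3.3) with a mean per group and a variance trend, and 64 control probe sets were left out. The fit had 2 residual and 10.2 prior degrees of freedom, and the lone input array is assumed to vary like the bound arrays. Bound is the mean of both protein groups. Nothing in the labels says that all samples of a group came from separate preparations, so the p-values reflect no more than the scatter among these arrays, which may be technical. Genes were named by size of change among called genes with all bound arrays on 1 side of input. Others were named by signal, by non-overlap of the groups and by having 3 or more probe sets. The members, lists and rules were chosen with earlier results of these data known. Alternatives were other pseudocounts, filters, scalings, variance models, the protein name in the titles as a block, 1 probe set per gene and leaving out each bound array. The probe set standing for a gene was also chosen on the bound arrays alone, an alternative chosen after seeing the data.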

Additional observations from a re-analysis of the deposited data

How the results depend on the processing

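Comparisons with input depended on scaling and on the filter, and limma called 0 members between deiminated and non-deiminated protein in every setting in which that comparison was fitted. Values below are in the order bound, deiminated and non-deiminated, each against input. With 1 probe set per gene, members called higher were 25, 26 and 25, called lower 10, 10 and 9, and medians 0.60, 0.49 and 0.61; only 76 probe sets were then tested as members. Cyclic loess gave 24, 18 and 20 called lower (13.6%, 10.7% and 10.3%) and medians of -0.30, -0.38 and -0.33. A filter on bound and input signal gave 13, 13 and 13 called higher (16.0%, 15.0% and 14.6%) and medians of -0.15, -0.13 and -0.13. A filter on mean signal gave medians of 0.50, 0.44 and 0.56. Control scaling gave 0, 0 and 0 called lower (0.0%, 0.0% and 0.0%) and medians of 5.70, 5.68 and 5.68. It gave 18 and 15 called higher for the deiminated and non-deiminated comparisons (6.11% and 6.22%). Median centring gave 86, 81 and 78 higher (28.4%, 26.7% and 25.9%) and 4, 5 and 2 lower (9.76%, 7.88% and 7.33%). Its medians were 1.70, 1.74 and 1.63. Without a variance trend, 21 were called lower for non-deiminated (25.5%). Quantile normalisation gave 61 called higher for deiminated (21.1%) and medians of 0.47 for bound and 0.47 for non-deiminated. Median centring and control scaling add the same amount to every difference with input, so falls are lost by construction. Control scaling also moves the arrays of a group by unequal amounts, and calls higher were lost under it too. For the other settings the cause was not tested.

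Leaving out 1 bound array gave medians of 0.19 to 0.34 for bound, 0.22 to 0.36 for deiminated and 0.19 to 0.23 for non-deiminated against input, and -0.16 to 0.06 between the forms. Over all probe sets these medians were -0.98 to -0.86, -1.07 to -0.88, -1.03 to -0.80 and -0.13 to 0.05. Calls over all probe sets moved in these fits too, so the counts that follow are not shown to be particular to the members. Members called higher were 38 to 48, 30 to 45 and 34 to 42, and called lower 33 to 44, 21 to 39 and 24 to 37, with 0 to 0 between the forms. The count of 21 came without deiminated replicate 2, which left that group 1 array.

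Bound minus input changed sign for some named genes. Under cyclic loess the values were -0.92 for Mrpl44, -0.65 for Mrpl15, -0.0068 for Mrpl3, -0.61 for Mrpl35, -0.77 for Mrpl47 and -0.97 for Mrps15, and under quantile normalisation -0.66 for Mrpl44, -0.036 for Mrpl15 and -0.62 for Mrps15. Under median centring they were 0.094 for Mrpl9, 0.36 for Mrps24, 0.97 for Mrpl11, 1.32 for Mrpl41, 0.87 for Mrpl17, 0.80 for Mrpl21, 1.38 for Mrpl28, 0.58 for Mrpl52, 1.40 for Mrps9 and 0.49 for Mrps36. Under control scaling, which moved all probe sets up, they were 2.57 for Mrpl38, 2.90 for Mrpl14, 3.04 for Mrps11, 3.11 for Mrpl54, 3.32 for Mrpl32, 3.42 for Mrpl34, 3.76 for Mrpl37, 3.89 for Mrps5, 4.09 for Mrpl9, 4.36 for Mrps24, 4.96 for Mrpl11, 5.32 for Mrpl41, 4.86 for Mrpl17, 4.80 for Mrpl21, 5.38 for Mrpl28, 4.57 for Mrpl52, 5.40 for Mrps9 and 4.48 for Mrps36. Leaving out 1 bound array, Mrps9 ran from -0.18 to 0.077 (the latter without deiminated replicate 2), Mrpl41 from -0.29 to 0.0205 and Mrpl28 from -0.26 to 0.10 (both highest without non-deiminated replicate 1). With the probe set brightest on the bound arrays alone, Mrpl38 was 2.72 (chosen after seeing the data). The labels' replicate numbers are not shared between the groups, but the protein name in the titles is. With it as a block, 39, 38 and 39 members were called higher, 35, 27 and 29 lower and 0 between the forms, and none of the 50 named differences changed sign or call. The number of arrays limits the precision, and the input side of every such difference rests on 1 array.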
